A study of Homo sapiens with 12 samples.

Results

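The genes of the AP-1 family (JUN, JUNB, JUND, FOS, FOSB, FOSL1 and FOSL2), together with ATF3, EGR1 and MYC, encode 10 transcription factors of the immediate early type. They were chosen by name, as factors known for short-lived mRNAs. No measured value enters the rule, although it was set with earlier results of these data known. All gene probes whose accession led to one of these symbols in RefSeq were taken, which gave 13 of the 34127 gene probes on the array, for 10 of 27522 gene names. ATF3 had 4 probes, and each of the other members had 1. The study asked how loss of DBP5, GLE1 or IPPK changes the mRNAs found in the cytoplasm. DBP5 is an RNA helicase at the cytoplasmic face of the nuclear pore, GLE1 stimulates it, and IPPK makes the inositol hexakisphosphate that assists GLE1. Cytoplasmic RNA of U2OS cells, a human osteosarcoma cell line, was hybridised to 12 one-colour arrays, with 3 arrays for each of a control siRNA, DBP5 siRNA, GLE1 siRNA and IPPK siRNA. According to the labels siRNA was used at 20 nM, and the methods give 48 h of culture and independent array experiments. All groups share the transfection, the cell line and the cytoplasmic fraction, and a single siRNA is described for DBP5, while the sources used here do not say which of the control, GLE1 and IPPK siRNAs was used on the arrays.

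AP-1 is a dimer of a JUN protein with a FOS or ATF protein, joined through leucine zippers, which binds DNA at a short palindrome. Serum, growth factors and stress switch these genes on within minutes, through MAP kinases that act on factors already bound to their promoters. Most of the mRNAs carry AU-rich elements and decay rapidly, so their level follows synthesis, export and decay closely. EGR1 is a zinc finger factor of the same early wave, and MYC pairs with MAX at E-boxes to drive growth genes. ATF3 is a stress-induced relative of the AP-1 proteins, known as a target of ATF4 and of p53.

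Promoter sequences in RefSeq (GRCh38.p14) were found for 8 of the 10 members, in 9 windows since ATF3 had 2 starts, and FOSL1 and MYC were not in the table. The 250 bases before each start were searched on both strands for 6 motifs. The windows of JUN, ATF3 and EGR1 are shown, since JUN and the first ATF3 window share a motif that EGR1 lacks. JUN and ATF3 also had the largest rises of the members after GLE1 knock-down, and EGR1 the largest fall. JUNB and FOSL2 rose there with no match, FOS fell with none, and JUND fell with a match. A link between motifs and levels was not tested. Capitals mark the motif matches, and each sequence reads 5′ to 3′ along the gene.
JUN, minus strand, chr1:58784048-58784297: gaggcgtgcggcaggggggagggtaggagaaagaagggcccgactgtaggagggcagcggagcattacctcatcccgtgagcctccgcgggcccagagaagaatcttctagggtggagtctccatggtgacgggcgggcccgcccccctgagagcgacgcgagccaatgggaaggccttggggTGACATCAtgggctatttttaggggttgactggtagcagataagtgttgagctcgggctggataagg
ATF3, first start, plus strand, chr1:212565157-212565406: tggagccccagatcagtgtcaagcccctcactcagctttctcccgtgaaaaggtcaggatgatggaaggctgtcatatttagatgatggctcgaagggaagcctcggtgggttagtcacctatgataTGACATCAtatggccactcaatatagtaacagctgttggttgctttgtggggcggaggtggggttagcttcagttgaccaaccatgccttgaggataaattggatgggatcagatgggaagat
EGR1, plus strand, chr5:138465229-138465478: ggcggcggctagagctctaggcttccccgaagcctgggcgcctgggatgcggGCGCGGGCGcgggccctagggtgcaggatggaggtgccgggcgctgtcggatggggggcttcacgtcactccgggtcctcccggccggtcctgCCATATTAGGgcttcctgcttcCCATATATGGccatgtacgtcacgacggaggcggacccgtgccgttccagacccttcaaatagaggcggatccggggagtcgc
In the JUN window the match TGACATCA lay at positions -67 to -60, counted back from the start. The same letters stood at positions -123 to -116 of the first ATF3 window. This variant of the cAMP response element, bound by JUN and ATF2 dimers, was present in 2.37% of the 35116 promoters of the same length. In the EGR1 window there were 2 CArG boxes, the sites of serum response factor, at positions -105 to -96 and -83 to -74, and a CArG box was present in 1.16% of all promoters. An EGR1 site (GCGNGGGCG, in 8.41% of promoters) lay farther upstream at positions -198 to -190. The JUND window held the palindromic cAMP response element TGACGTCA at positions -200 to -193, which 1.65% of promoters hold. Neither the AP-1 site TGANTCA (6.57% of promoters) nor the MYC E-box CACGTG (6.34%) was in any member window. For JUNB, FOS, FOSB, FOSL2 and the second start of ATF3 no motif matched within these windows. Sites farther upstream and sites with other letters were not searched, so these genes may hold such sites elsewhere.

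**Figure D1:**
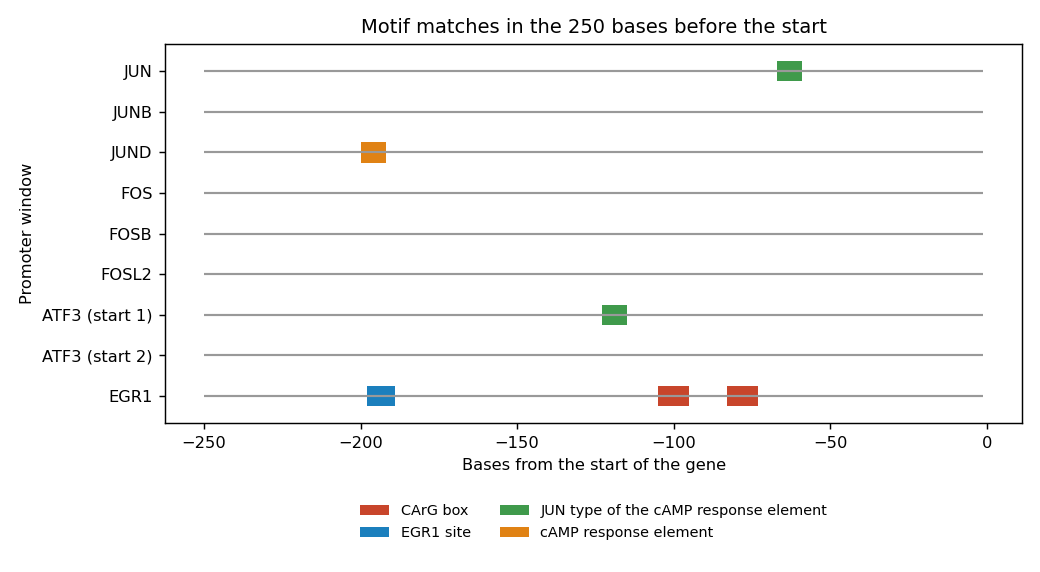
Position of motif matches in the 9 promoter windows of 8 members, in bases before the start of the gene (x axis), with 1 line per window and 1 block per match. The blocks of the same colour in JUN and in the first ATF3 window are the shared TGACATCA, and EGR1 is the only window with CArG boxes.

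The labels were checked against the siRNA targets and marker genes. DDX19B, which encodes DBP5, was 0.0643 ± 0.00121 times control in DBP5 knocked-down cells, GLE1 was 0.102 ± 0.0274 times control and IPPK was 0.1865 ± 0.00815 times control in their own knock-downs (SD, n = 3). The targets also fell outside their own knock-downs, IPPK to 0.4205 ± 0.0142 times control in DBP5 knocked-down cells and DDX19B to 0.490 ± 0.0237 times control in GLE1 knocked-down cells. DDX19A, the close paralog of DDX19B, fell in all 3 knock-downs, to 0.0537 ± 0.00258 times control in DBP5, 0.541 ± 0.00934 times control in GLE1 and 0.3015 ± 0.00413 times control in IPPK knocked-down cells, so that both paralogs were low with DBP5 siRNA. On the control arrays all 6 mesenchymal markers, VIM and RUNX2 among them, passed the background flag, against 5 of them on the arrays of each knock-down, where COL1A2 did not pass throughout. CDH2 had a mean log2 level of 10.53 in control, 11.01 in DBP5, 11.89 in GLE1 and 11.43 in IPPK knocked-down cells, and COL5A2 had 8.60, 9.04, 10.29 and 9.29 in the same order. CDKN2A and TERT, which are known to be silent in U2OS cells, were nevertheless well above background on all 12 arrays. Of 10 markers of other cell types, 5 were well above background on all control arrays, 7 on the DBP5 arrays, 5 on the GLE1 arrays and 4 on the IPPK arrays, with KRT5 on none. The epithelial marker CDH1 was well above background on no control array, on all 3 DBP5 arrays, on all 3 GLE1 arrays and on 2 IPPK arrays, with a mean log2 level of 3.48, 4.42, 6.78 and 4.78 in that order. EPCAM had a mean of 9.49 in control, 8.88 in DBP5, 9.04 in GLE1 and 8.57 in IPPK knocked-down cells. The summed log2 level of these 10 markers of other cell types was 10.34 to 10.52 in control, 10.10 to 10.25 in DBP5, 10.44 to 10.59 in GLE1 and 9.91 to 10.17 in IPPK knocked-down cells. The 3 RNAs known to stay in the nucleus (KCNQ1OT1, MALAT1 and MEG3) had a summed log2 level of 12.80 to 12.83 in control, 13.17 to 13.36 in DBP5, 13.51 to 13.53 in GLE1 and 12.93 to 13.01 in IPPK knocked-down cells. That sum rested on KCNQ1OT1, and MALAT1 had a lower mean in each knock-down (8.00, 8.20 and 7.45) than in control (8.53), while MEG3 was at 10.47, 10.87 and 10.60 against 10.55. After GLE1 knock-down 2 of the 3 were called higher and none lower. These values moved with the knock-downs, and their part in the results was not tested. Of all probes, 70.9% to 73.8% were well above background on the IPPK arrays and 73.4% to 77.7% on the other 9 arrays, and these ranges overlapped.

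All 10 members were well above background on all 12 arrays and passed the filter. Passing this flag does not by itself show expression, since CDKN2A and TERT passed it as well. GLE1 knock-down changed every one of them: 5 rose (JUN, ATF3, FOSL2, MYC and JUNB) and 5 fell (EGR1, FOS, FOSB, FOSL1 and JUND) by limma with Benjamini-Hochberg adjustment over all 20818 genes tested. Across all genes tested, 62% were called in this comparison (31.5% lower and 30.6% higher), so changed genes were common. The changes of the members went up to 3.25-fold for JUN and down to 0.4135 times control for EGR1. In DBP5 knocked-down cells 4 members fell (FOS, FOSB, FOSL1 and MYC) and 1 rose (JUN), where 54.3% of all genes were called (27.5% lower and 26.8% higher). In IPPK knocked-down cells 3 fell (FOS, FOSB and MYC) and 2 rose (JUN and ATF3), where 55.4% of all genes were called (28% lower and 27.3% higher). The shares of members called in DBP5 and IPPK knocked-down cells were thus near those of all genes. With the replicate number as a block, 5 members were called lower in IPPK knocked-down cells instead of 3, beside 30.4% of all genes instead of 28%. The methods' t-test, after adjustment, called 6 members in GLE1, 1 in DBP5 and 3 in IPPK knocked-down cells, beside 47.2%, 24.2% and 36.7% of all genes. These were EGR1, FOS, FOSL1, JUN, ATF3 and MYC in GLE1, MYC in DBP5, and FOS, JUN and ATF3 in IPPK knocked-down cells. The 3 comparisons share the control arrays and are not independent of each other. In a bulk fraction, fewer cells that express a gene and less RNA per cell cannot be told apart. Because the arrays were normalized to each other, rises and falls are relative to the other genes on the arrays. Absolute cytoplasmic amounts were not measured.

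**Figure D2:**
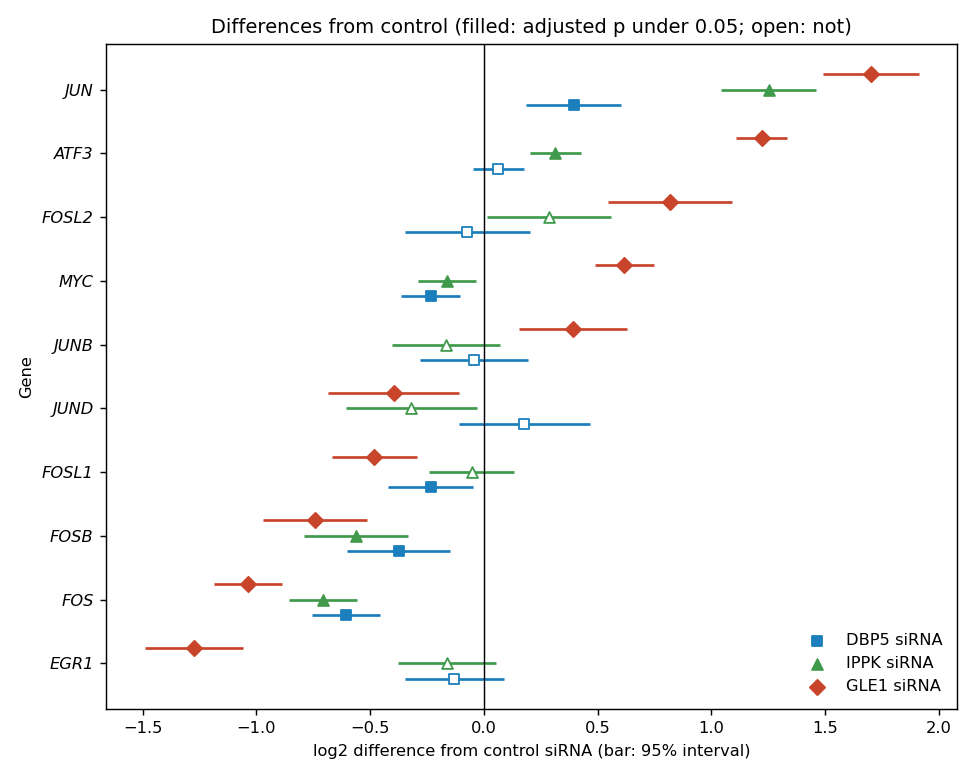
Log2 difference of each member from control siRNA (x axis) for the 3 knock-downs, from limma over 12 arrays, with bars for the 95% interval and filled symbols for an adjusted p under 0.05. JUN lies right of 0 and FOS and FOSB lie left of 0 in all 3 knock-downs, while all 10 GLE1 symbols are filled.

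The arrays of a knock-down lay entirely on one side of the control arrays for 5 members in DBP5, 10 in GLE1 and 7 in IPPK knocked-down cells. The corresponding share of all genes was 59.2%, 68.5% and 63.7%. The median log2 difference of the members was -0.10, 0.00 and -0.16 in the same order, beside -0.02, 0.01 and -0.03 for all genes tested.

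**Figure D3:**
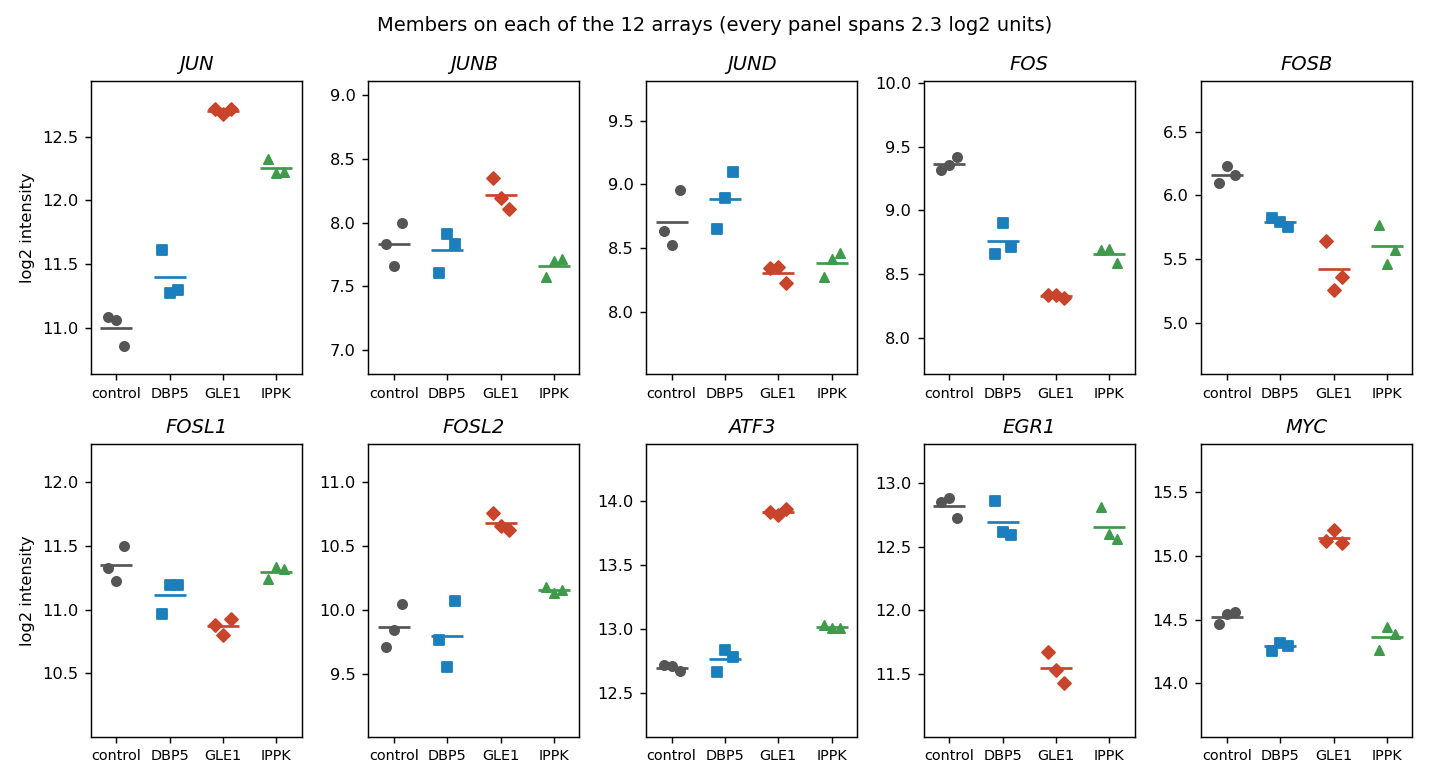
Log2 intensity after cyclic loess (y axis) of the 10 members on each of the 12 arrays, with 1 symbol per array, a line at the mean of each siRNA group and 1 panel per gene. Every panel spans the same range, so the separation of the GLE1 arrays can be compared between genes, but levels of different genes cannot.

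JUN encodes the AP-1 subunit that can pair with itself as well as with FOS proteins, and it was the member with the largest rise. On the control arrays its log2 intensity was 11.08, 11.06 and 10.85. It was 11.61, 11.27 and 11.30 on the DBP5 arrays, 12.72, 12.68 and 12.71 on the GLE1 arrays, and 12.33, 12.21 and 12.22 on the IPPK arrays. No array of one siRNA overlapped with those of another, and the order was control, DBP5, IPPK and GLE1 from low to high. Cytoplasmic JUN mRNA was 3.25 ± 0.0539 times control after GLE1 knock-down (limma adjusted p = 8.03e-08), 2.38 ± 0.107 times control after IPPK knock-down (adjusted p = 1.26e-06) and 1.31 ± 0.180 times control after DBP5 knock-down (adjusted p = 0.00464). For DBP5 the rise was not called by the methods' t-test after adjustment. Here and below the SD is that of the ratios of the 3 knock-down arrays to the control mean. Of all genes tested, the rise of JUN lay at the 97.8th percentile in GLE1 and at the 96.4th in IPPK knocked-down cells.

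JUNB and JUND are the other JUN proteins, of which JUNB is known to restrain JUN and JUND is known for its steady expression in resting cells. JUNB was at 7.83, 7.66 and 8.00 on the control arrays, 7.61, 7.91 and 7.83 on the DBP5 arrays, 8.35, 8.20 and 8.11 on the GLE1 arrays and 7.57, 7.70 and 7.72 on the IPPK arrays. Only the GLE1 arrays stood apart, above all others. The rise after GLE1 knock-down was 1.31 ± 0.113 times control (limma adjusted p = 0.00827), whereas the ratio was 0.97 in DBP5 (95% interval 0.822 to 1.143, adjusted p = 0.771) and 0.89 in IPPK knocked-down cells (0.756 to 1.051, adjusted p = 0.219). After adjustment, the methods' t-test did not call the rise of JUNB.

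JUND was at 8.63, 8.52 and 8.95 on the control arrays, 8.65, 8.90 and 9.10 on the DBP5 arrays, 8.34, 8.35 and 8.22 on the GLE1 arrays and 8.27, 8.41 and 8.46 on the IPPK arrays. The GLE1 and IPPK arrays overlapped with each other and lay below all control and DBP5 arrays. JUND fell to 0.760 ± 0.0373 times control after GLE1 knock-down (limma adjusted p = 0.0208). That call was lost without control replicate 3 (log2 difference -0.27) or without GLE1 replicate 3 (-0.36, against -0.40 with all arrays). It was also lost in the methods' t-test after adjustment. After IPPK knock-down the ratio was 0.80 (0.657 to 0.978, adjusted p = 0.0583), and it passed the threshold with the replicate number as a block (adjusted p = 0.0366), without control replicate 2 (-0.41), without DBP5 replicate 1 or 3 (-0.32, as with all arrays) and among genes well above background on all 12 arrays. In DBP5 knocked-down cells the ratio was 1.13 (0.927 to 1.381, adjusted p = 0.283).

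Of the FOS proteins, which cannot pair with themselves and need a JUN partner, FOS and FOSB fell in all 3 knock-downs. FOS was at 9.32, 9.35 and 9.42 on the control arrays. It was at 8.66, 8.90 and 8.71 on the DBP5 arrays, 8.34, 8.34 and 8.31 on the GLE1 arrays and 8.69, 8.70 and 8.58 on the IPPK arrays. Every knock-down array lay below every control array, the GLE1 arrays were the lowest, and the DBP5 and IPPK arrays overlapped. FOS was 0.487 ± 0.00562 times control after GLE1 knock-down (limma adjusted p = 2.47e-07), 0.612 ± 0.0260 times control after IPPK knock-down (adjusted p = 6.87e-06) and 0.657 ± 0.0602 times control after DBP5 knock-down (adjusted p = 2.26e-05). The call for DBP5 was lost in the methods' t-test after adjustment.

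FOSB, whose product resembles FOS and is known from long-lasting stimulation in neurons, followed FOS in direction. Its levels were 6.09, 6.23 and 6.16 on the control arrays, 5.82, 5.79 and 5.75 on the DBP5 arrays, 5.64, 5.26 and 5.36 on the GLE1 arrays and 5.77, 5.46 and 5.57 on the IPPK arrays. All knock-down arrays lay below the control arrays, and the IPPK arrays overlapped with both other knock-downs. TERT, known to be silent in U2OS cells, had a higher mean than FOSB in each group. Its means were 6.27 in control, 6.23 in DBP5, 6.03 in GLE1 and 6.20 in IPPK knocked-down cells. Levels of different genes cannot be compared closely, and whether the FOSB signal stands for its mRNA was not tested. FOSB was 0.5975 ± 0.0837 times control after GLE1 knock-down (limma adjusted p = 8.86e-05), 0.677 ± 0.0745 times control after IPPK knock-down (adjusted p = 0.000806) and 0.771 ± 0.0193 times control after DBP5 knock-down (adjusted p = 0.00981). In the processed values of the authors, which follow the signal without background subtraction, the log2 differences were smaller, at -0.34 against -0.74 for GLE1, -0.30 against -0.56 for IPPK and -0.19 against -0.38 for DBP5, and the calls held. By the methods' t-test, after adjustment, FOSB was called in no knock-down.

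FOSL1 and FOSL2 encode FRA-1 and FRA-2, FOS proteins without the strong activation domain of FOS. FOSL1 was at 11.33, 11.23 and 11.50 on the control arrays, 10.97, 11.19 and 11.19 on the DBP5 arrays, 10.88, 10.80 and 10.93 on the GLE1 arrays and 11.24, 11.33 and 11.32 on the IPPK arrays. The GLE1 arrays were below all others, and the IPPK arrays overlapped with control. FOSL1 was 0.716 ± 0.0310 times control after GLE1 knock-down (limma adjusted p = 0.000481), and 0.964 times control in IPPK knocked-down cells (0.847 to 1.097, adjusted p = 0.632). Its fall to 0.851 ± 0.0755 times control after DBP5 knock-down (log2 difference -0.23, adjusted p = 0.0369) was no longer called without control replicate 1 (-0.25), control replicate 3 (-0.16), DBP5 replicate 1 (-0.16) or IPPK replicate 3 (-0.23), nor with no filter on dim probes or with the 6 arrays of that comparison alone. Nor was this fall called by the methods' t-test after adjustment.

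FOSL2 moved the opposite way. It was at 9.71, 9.84 and 10.05 on the control arrays, 9.76, 9.55 and 10.07 on the DBP5 arrays, 10.76, 10.66 and 10.63 on the GLE1 arrays and 10.18, 10.13 and 10.15 on the IPPK arrays. The GLE1 arrays were the highest, the IPPK arrays lay between them and the others, and DBP5 overlapped with control. FOSL2 rose to 1.76 ± 0.0828 times control after GLE1 knock-down (limma adjusted p = 0.000168). This rise was not called by the methods' t-test after adjustment. The ratio was 1.22 in IPPK knocked-down cells (1.01 to 1.475, adjusted p = 0.0706) and 0.951 in DBP5 knocked-down cells (0.787 to 1.149, adjusted p = 0.671). The IPPK difference (log2 0.29) passed the threshold without control replicate 3 (0.38) and without DBP5 replicate 2 or 3 (0.29), and also with normexp background correction (0.30), the processed values of the authors (0.31) and the 6 arrays of that comparison alone.

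ATF3 pairs with JUN proteins and, with itself, represses promoters. Its brightest probe was at 12.71, 12.71 and 12.67 on the control arrays, 12.66, 12.84 and 12.78 on the DBP5 arrays, 13.92, 13.90 and 13.94 on the GLE1 arrays and 13.03, 13.00 and 13.00 on the IPPK arrays. The GLE1 arrays were the highest and the IPPK arrays the next, both above all control arrays, and DBP5 overlapped with control. ATF3 rose to 2.33 ± 0.0380 times control after GLE1 knock-down (limma adjusted p = 1.01e-08) and to 1.24 ± 0.0117 times control after IPPK knock-down (adjusted p = 0.000331). In DBP5 knocked-down cells the ratio was 1.045 (0.967 to 1.129, adjusted p = 0.328), and a rise was called without DBP5 replicate 1 (log2 difference 0.11 against 0.06).

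The 4 ATF3 probes were all higher after GLE1 knock-down, but by different amounts. From the brightest to the dimmest, the ratio to control was 2.33, 1.79, 2.37 and 1.22, all called by limma over all 25875 probes tested (the last not with 75th percentile scaling, at a log2 difference of 0.25 against 0.29). For DBP5 and IPPK knock-down the probes disagreed. The dimmest probe was at 8.09, 7.92 and 8.04 on the control arrays and at 7.85, 7.73 and 7.77 on the DBP5 arrays, a fall to 0.852 ± 0.0366 times control (adjusted p = 0.0435). By contrast, the probe next above it was at 8.09, 8.05 and 8.03 on the control arrays and at 8.14, 8.34 and 8.30 on the DBP5 arrays, a rise to 1.15 ± 0.0828 times control (adjusted p = 0.0473). Neither of these opposite calls for DBP5 held in every alternative. After IPPK knock-down the brightest probe and that same probe were called higher (1.24 ± 0.0117 and 1.24 ± 0.0841 times control), and the other two were not called (1.10 and 0.883 times control). With the mean of the 4 probes in place of the brightest, the log2 difference for ATF3 in IPPK knocked-down cells was 0.14 instead of 0.31 and not called (adjusted p = 0.0632), and that for GLE1 was 0.90 instead of 1.22 and called.

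**Figure D4:**
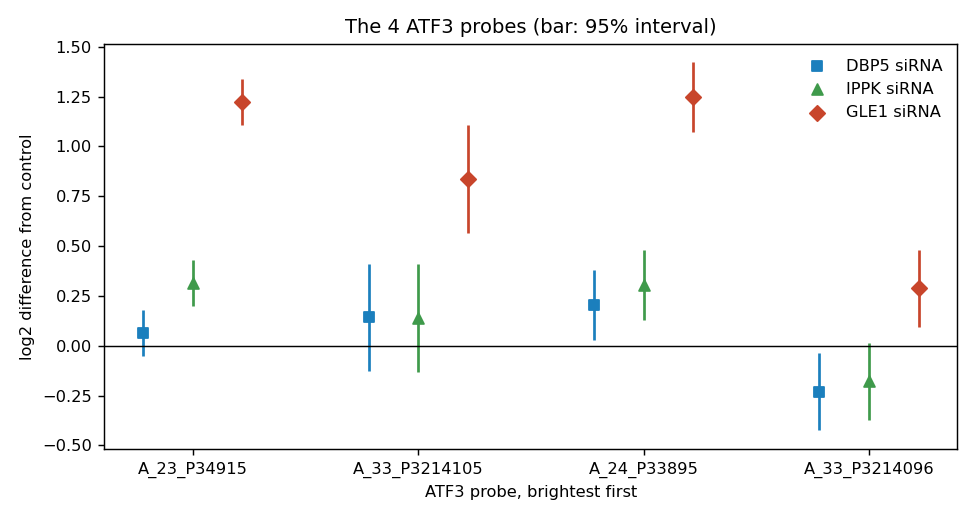
Log2 difference from control (y axis) of each of the 4 ATF3 probes (x axis, brightest first) for the 3 knock-downs, with bars for the 95% interval from limma. The GLE1 symbols are above 0 for every probe, and the DBP5 and IPPK symbols of the dimmest probe are below 0.

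EGR1 had the largest fall of the members. It was at 12.85, 12.88 and 12.73 on the control arrays, 12.86, 12.62 and 12.59 on the DBP5 arrays, 11.67, 11.53 and 11.43 on the GLE1 arrays and 12.81, 12.60 and 12.56 on the IPPK arrays. The GLE1 arrays lay far below the other 9, among which the groups overlapped. EGR1 fell to 0.4135 ± 0.0345 times control after GLE1 knock-down (limma adjusted p = 9.04e-07), at the 5.28th percentile of all genes. Its ratio was 0.914 in DBP5 (0.787 to 1.062, adjusted p = 0.302) and 0.893 in IPPK knocked-down cells (0.769 to 1.037, adjusted p = 0.183). With the replicate number as a block, EGR1 was called lower in IPPK knocked-down cells (log2 difference -0.16, adjusted p = 0.0374).

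MYC was measured by 1 probe printed in 10 spots per array, none of them an outlier. Between these spots the SD was 0.032 to 0.157 on the log2 scale, highest on the array of IPPK replicate 1. MYC was at 14.46, 14.55 and 14.56 on the control arrays, 14.26, 14.32 and 14.30 on the DBP5 arrays, 15.12, 15.20 and 15.10 on the GLE1 arrays and 14.26, 14.44 and 14.39 on the IPPK arrays. The GLE1 arrays were above and the DBP5 and IPPK arrays below all control arrays, so that the direction of MYC differed between knock-downs. After GLE1 knock-down MYC rose to 1.53 ± 0.0593 times control (limma adjusted p = 4.48e-06), and after DBP5 knock-down it fell to 0.851 ± 0.0190 times control (adjusted p = 0.00573). The fall to 0.894 ± 0.0570 times control after IPPK knock-down (log2 difference -0.16, adjusted p = 0.036) was lost without control replicate 2 (-0.15), control replicate 3 (-0.14), IPPK replicate 1 (-0.11) or IPPK replicate 3 (-0.17), with no filter on dim probes and with the 6 arrays of that comparison alone. The methods' t-test, after adjustment, did not call it either.

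The knock-downs were then compared with each other. Against DBP5 knocked-down cells, GLE1 knocked-down cells differed in all 10 members, 5 higher and 5 lower, where 54.6% of all genes were called (26.5% higher and 28% lower). JUN (2.475 ± 0.0410 times), ATF3 (2.23 ± 0.0364 times), FOSL2 (1.85 ± 0.0871 times), MYC (1.80 ± 0.0698 times) and JUNB (1.35 ± 0.117 times) were higher. EGR1 (0.452 ± 0.0378 times), JUND (0.671 ± 0.0330 times), FOS (0.742 ± 0.00855 times), FOSB (0.775 ± 0.109 times) and FOSL1 (0.8415 ± 0.0364 times) were lower. The FOSL1 call was lost without DBP5 replicate 2 or 3 (log2 difference -0.21) or GLE1 replicate 1 (-0.25) or 2 (-0.22), and the FOSB call was lost with 75th percentile scaling. After adjustment, the methods' t-test kept only the calls for EGR1, JUN, ATF3 and MYC. The arrays of the groups did not overlap for 10 members, as for 60.6% of all genes.

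Against IPPK knocked-down cells, GLE1 knocked-down cells differed in 8 members, 5 higher and 3 lower, where 60.2% of all genes were called (29.4% higher and 30.8% lower). ATF3 (1.88 ± 0.0306 times), MYC (1.72 ± 0.0664 times), JUNB (1.47 ± 0.127 times), FOSL2 (1.44 ± 0.0678 times) and JUN (1.37 ± 0.0226 times) were higher and EGR1 (0.463 ± 0.0387 times), FOSL1 (0.743 ± 0.0321 times) and FOS (0.796 ± 0.00918 times) lower. FOSB was at 0.883 times (0.754 to 1.034, limma adjusted p = 0.158) and JUND at 0.948 times (0.7765 to 1.157, adjusted p = 0.643). For 8 members the arrays did not overlap, as for 67.9% of all genes. Without GLE1 replicate 1 the FOSB difference was called (log2 -0.29 against -0.18).

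In IPPK against DBP5 knocked-down cells there were 3 members higher and 1 lower where 48.9% of all genes were called (25.1% higher and 23.8% lower). JUN (1.81 ± 0.0815 times), FOSL2 (1.28 ± 0.0219 times) and ATF3 (1.19 ± 0.0112 times) were higher with IPPK siRNA, and JUND was lower (0.708 ± 0.0479 times). The other 6 members had ratios of 0.878 to 1.133, which does not show that they were alike, and the arrays did not overlap for 5 members, as for 56.2% of all genes. The FOSL2 call (log2 difference 0.36, limma adjusted p = 0.0327) was lost without DBP5 replicate 1 (0.34), DBP5 replicate 2 (0.24) or IPPK replicate 1 (0.35), 2 (0.37) or 3 (0.36), and the ATF3 call was lost with the mean of its probes (0.10). In the methods' t-test, after adjustment, only JUN was called.

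Genes whose log2 values followed a member most closely over the 12 arrays were looked up among 18422 genes well above background throughout. Since the arrays form 4 groups of 3, the Pearson correlation is given as a description of a like pattern over the siRNA groups. For JUN these were FAM241A (0.996) and ARL2BP (0.993), and EDN2 (0.993) was among those for ATF3. USP39 and HMMR (both 0.993) followed EGR1, TCF19 (0.989) and LENG1 (0.988) followed FOS, and HSPB8 (0.989) and TMEM255A (0.984) followed MYC.

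Genes around the members in the same pathways were described by their counts. For comparison, 27.5% of all genes tested fell and 26.8% rose after DBP5, 31.5% fell and 30.6% rose after GLE1, and 28% fell and 27.3% rose after IPPK knock-down. Between the 10 lists the share called went from 50% to 90.9% for DBP5, from 52.6% to 90.9% for GLE1 and from 33.3% to 93.3% for IPPK, beside 54.3%, 62% and 55.4% of all genes. Among 15 tested relatives with a basic leucine zipper, 8 fell and 3 rose after DBP5, 5 fell and 6 rose after GLE1, and 9 fell and 5 rose after IPPK knock-down. MAF, a large MAF protein, rose to 7.69 ± 0.567 times control after GLE1 knock-down (limma adjusted p = 5.24e-10) and to 1.82 ± 0.0611 times control after DBP5 knock-down. CREM, a cAMP-responsive regulator, fell to 0.349 ± 0.00547 times control after GLE1 and to 0.522 ± 0.0388 times control after DBP5 knock-down. JDP2, which pairs with JUN and represses, rose to 2.14 ± 0.0700 times control after IPPK knock-down. BATF2 fell to 0.3835 ± 0.0273 times control after IPPK and to 0.326 ± 0.00728 times control after GLE1 knock-down.

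Of 24 other immediate early genes, 13 fell and 6 rose after DBP5, 11 fell and 8 rose after GLE1, and 12 fell and 7 rose after IPPK knock-down. The median log2 difference was -0.28, -0.23 and -0.21, beside -0.02, 0.01 and -0.03 for all genes tested. BTG2, an antiproliferative p53 target, rose to 4.19 ± 0.343 times control after GLE1 and to 2.87 ± 0.214 times control after IPPK knock-down. The kinase PLK2 rose in all 3 knock-downs (2.50 ± 0.0751 in DBP5, 3.12 ± 0.0509 in GLE1 and 2.54 ± 0.0157 times control in IPPK knocked-down cells). The nuclear receptor NR4A2 fell to 0.422 ± 0.0290 times control after DBP5 and to 0.358 ± 0.0426 times control after GLE1 knock-down. IER3 fell to 0.425 ± 0.0361 times control after DBP5 and to 0.459 ± 0.0218 times control after IPPK knock-down.

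Among 19 MAP kinases and ternary complex factors, which act on the early promoters, 6 fell and 6 rose after DBP5, 4 fell and 6 rose after GLE1, and 3 fell and 7 rose after IPPK knock-down. The share called was 63.2%, 52.6% and 52.6%, beside the 54.3%, 62% and 55.4% of all genes. ELK1, a partner of serum response factor at CArG boxes, was 0.362 ± 0.0233 times control in GLE1 knocked-down cells, and RPS6KA5, a kinase for histone H3 at early genes, was 0.3095 ± 0.0145 times control. MAPK9, a JUN kinase, rose to 2.13 ± 0.0684 times control after DBP5 and to 2.49 ± 0.0455 times control after IPPK knock-down. Among 14 feedback inhibitors of the MAP kinases, 6 fell and 1 rose, 6 fell and 4 rose, and 8 fell and 2 rose in the same order. DUSP6, the phosphatase for ERK, fell to 0.1855 ± 0.0210 times control after GLE1 knock-down, while DUSP1, itself an early gene for a phosphatase of JNK and p38, rose to 3.02 ± 0.0326 times control. DUSP5 fell to 0.367 ± 0.0310 times control after DBP5 and to 0.537 ± 0.00667 times control after IPPK knock-down.

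Of 15 genes known as AP-1 targets, 9 fell and 3 rose after DBP5 (median log2 difference -0.68), 2 fell and 9 rose after GLE1 (0.49), and 5 fell and 5 rose after IPPK knock-down (-0.06). CD44, the hyaluronan receptor, rose to 2.38 ± 0.206 times control after DBP5 and to 2.05 ± 0.219 times control after GLE1 knock-down. IL11, a cytokine, fell to 0.135 ± 0.00503 times control after IPPK knock-down, whereas MMP3, stromelysin, rose to 3.42 ± 0.383 times control.

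**Figure D5:**
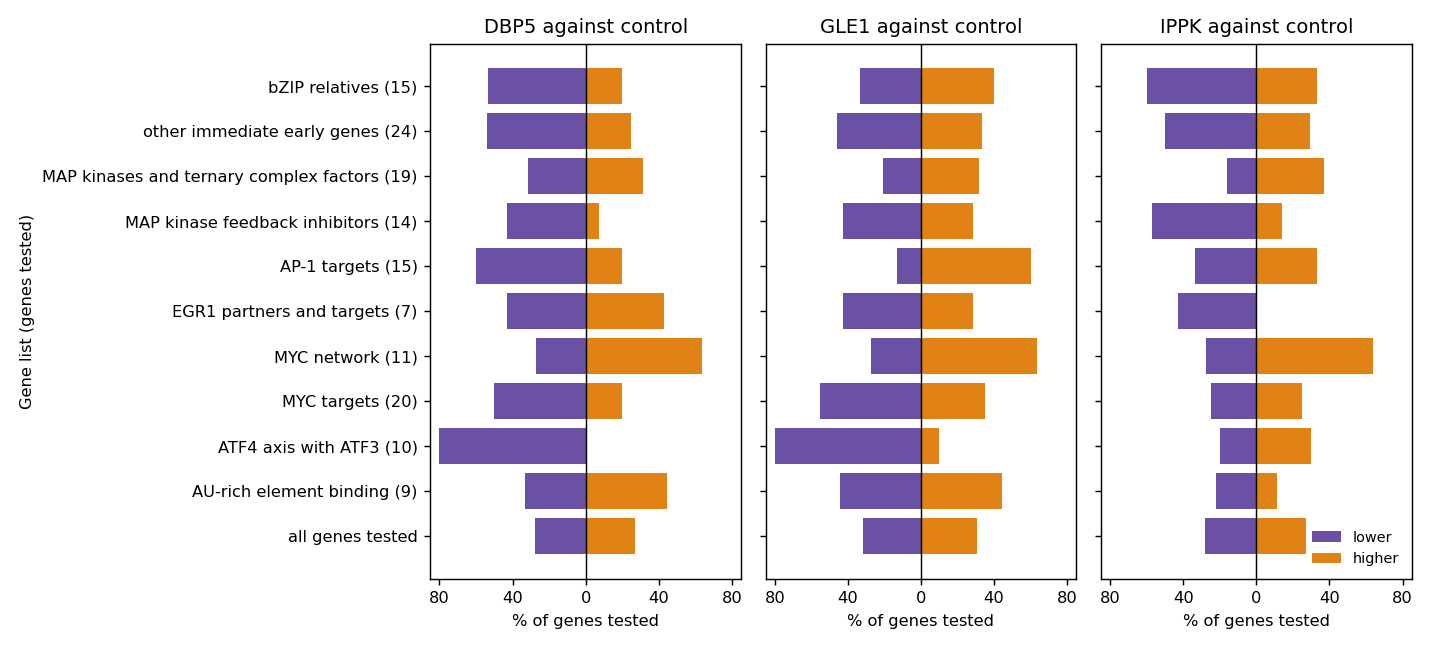
Share of the tested genes of each list called lower (left of 0) and higher (right of 0) by limma, in % (x axis), with 1 panel per knock-down, the number of genes tested in parentheses and all genes tested in the bottom row. AP-1 targets lie mainly on the lower side after DBP5 and on the higher side after GLE1 knock-down.

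EGR1 has the corepressors NAB1 and NAB2, and NAB2 is also its target. Of 7 EGR1 partners and targets, 3 fell and 3 rose after DBP5, 3 fell and 2 rose after GLE1, and 3 fell and none rose after IPPK knock-down. NAB1 fell to 0.127 ± 0.00817 times control and NAB2 to 0.402 ± 0.00938 times control after GLE1 knock-down, where EGR1 fell as well. NAB2 also fell to 0.422 ± 0.0104 times control after IPPK knock-down, and NAB1 to 0.469 ± 0.101 times control after DBP5 knock-down, where EGR1 was not called.

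The network of MYC paralogs and of MAX and MLX partners had 3 genes lower and 7 higher of 11 in each of the 3 knock-downs, with a median log2 difference of 0.33 in DBP5, 0.74 in GLE1 and 0.55 in IPPK knocked-down cells. MXD4, a MAX partner that opposes MYC, rose to 4.57 ± 0.172 times control after DBP5, to 4.07 ± 0.209 times control after GLE1 and to 1.65 ± 0.0724 times control after IPPK knock-down. The paralog MYCL rose (2.52 ± 0.249, 2.59 ± 0.224 and 3.15 ± 0.167 times control in the same order), and the paralog MYCN fell (0.3805 ± 0.0583, 0.156 ± 0.0120 and 0.719 ± 0.0461 times control). Of 20 MYC targets in ribosome formation and metabolism, 10 fell and 4 rose after DBP5, 11 fell and 7 rose after GLE1, and 5 fell and 5 rose after IPPK knock-down. RRS1, a ribosome assembly factor, fell to 0.462 ± 0.0200 times control after GLE1 knock-down, in which MYC rose, while POLR1B, a subunit of RNA polymerase I, rose to 1.44 ± 0.0499 times control and BOP1 to 1.29 ± 0.0180 times control. After DBP5 knock-down, in which MYC fell, the nucleolar protein NCL fell to 0.629 ± 0.0513 times control and the cap-binding factor EIF4E rose to 1.54 ± 0.0319 times control.

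ATF3 is also a member of the ATF4 stress response. Of 10 genes of this response, 8 fell and none rose after DBP5 (median log2 difference -0.96), 8 fell and 1 rose after GLE1 (-0.45), and 2 fell and 3 rose after IPPK knock-down (-0.03). CHAC1, which degrades glutathione, fell to 0.244 ± 0.00981 times control and ASNS, asparagine synthetase, to 0.363 ± 0.0159 times control after DBP5 knock-down. In GLE1 knocked-down cells CHAC1 (0.4185 ± 0.0269 times control) and ASNS (0.425 ± 0.0110 times control) fell while ATF3 rose, and SESN2 rose to 1.93 ± 0.0577 times control. After IPPK knock-down SESN2 (1.73 ± 0.0717 times control) and ASNS (1.53 ± 0.0505 times control) rose, and DDIT3 fell to 0.4475 ± 0.170 times control.

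Of 9 genes for proteins that bind AU-rich elements, 3 fell and 4 rose after DBP5, 4 fell and 4 rose after GLE1, and 2 fell and 1 rose after IPPK knock-down. ZFP36, which speeds the decay of such mRNAs and is itself an early gene, fell in all 3 knock-downs, to 0.602 ± 0.0491 times control in DBP5, 0.519 ± 0.0158 times control in GLE1 and 0.721 ± 0.0149 times control in IPPK knocked-down cells. KHSRP, another decay factor, rose to 1.59 ± 0.534 times control after DBP5 and to 1.59 ± 0.0235 times control after GLE1 knock-down. The ZFP36 relatives ZFP36L2 (1.40 ± 0.103 times control after GLE1 knock-down) and ZFP36L1 (1.24 ± 0.0357 times control after IPPK knock-down) rose as well. ELAVL1, which protects such mRNAs, rose to 1.33 ± 0.158 times control after DBP5 knock-down, and HNRNPD fell to 0.616 ± 0.00746 times control after GLE1 knock-down.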

How the data were processed

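The cytoplasmic fraction of U2OS cells was profiled on 12 one-colour arrays (3 per siRNA). The authors deposited Feature Extraction output with a linear intensity per spot after background subtraction, the median intensity of spot and background, and quality flags, and a table of log2 values, normalized by LOESS regression according to the methods. These follow the unsubtracted median intensity (Pearson's r across probes at least 0.9998).

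The log2 of the subtracted intensity was used, without control and outlier spots (169 to 358 per array). Spots of a probe were averaged and arrays normalized by cyclic loess. Of 34127 probes, 26445 were named through RefSeq (GRCh38.p14) and the others kept the design's name. The brightest probe stood for a gene, and 20818 of 27522 genes, well above background on all 3 arrays of an siRNA, were tested with limma 3.58.1 in R 4.3.3 (a mean per siRNA, Benjamini-Hochberg within each contrast, threshold 0.05). Tables and figures used Python 3.11.15, pandas 2.3.3 and matplotlib 3.10.9. Arrays have no counts, so precision depends on the signal above background and on 3 arrays per siRNA.

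The members and gene lists were chosen with earlier results of these data known. List genes are named by rule: per list and knock-down, up to 2 called genes in each direction with the largest change whose arrays do not overlap with control. The text gives a part of them, and some genes are not reported here. The replicate number marks the slide, and same-numbered arrays deviated together (18 pairs, r from 0.318 to 0.513; 36 other pairs, -0.285 to -0.050), so a fit with the number as a block was run. Other alternatives were 75th percentile scaling, quantile normalization, normexp background (offset 50, on median signals), the authors' processed values, other filters, the mean of probes or each probe, the arrays of one comparison alone, leaving out each array, and the methods' t-test.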

Additional observations from a re-analysis of the deposited data

How the results depend on the processing

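The calls for JUN, FOS, ATF3 and EGR1 after GLE1 knock-down and for JUN and FOS after IPPK knock-down were kept in every alternative that was run. With the replicate number as a block, members called lower in IPPK against control were 5 instead of 3 (JUND and EGR1 in addition), beside 30.4% instead of 28% of all genes, and of the members only these calls changed, while among the other ATF3 probes 2 changed. With quantile normalization, members called lower in IPPK against DBP5 were 2 instead of 1 (all genes 24.2% instead of 23.8%). With the mean of the probes of a gene, members called higher in IPPK against control were 1 instead of 2 (all genes 27.3% in both). On 3 pairs of arrays, the paired, two-sided version of the methods' t-test called fewer members than limma in 5 of 6 comparisons once its p-values were adjusted by Benjamini-Hochberg: 1 in DBP5 against control (1 lower, 0 higher), 6 in GLE1 against control (3 lower, 3 higher), 3 in IPPK against control (1 lower), 4 in GLE1 against DBP5 (1 lower, 3 higher) and 1 in IPPK against DBP5 (0 lower, 1 higher), whereas it called 8 in GLE1 against IPPK, as many as limma. Of all genes it called 24.2%, 47.2%, 36.7%, 25.5%, 19% and 49% in the same order. Before adjustment it called 3, 8, 5, 6, 2 and 9 members at an unadjusted p under 0.05, beside 46.2%, 58.6%, 51.8%, 46.6%, 43.1% and 58.9% of all genes. The log2 difference of EGR1 between IPPK and DBP5 changed sign from -0.03 to 0.0040 with normexp background and to 0.0089 with the processed values of the authors, and that of the second brightest ATF3 probe changed from -0.004 to 0.0213 with 75th percentile scaling and to 0.0024 with the processed values of the authors. None of these was called. With 1 array left out, members called higher in DBP5 against control were 1 to 2 (2 without DBP5 replicate 1). Sign changes of differences that were not called occurred for JUNB in DBP5 against control (-0.13 to 0.043), FOSL2 in DBP5 against control (-0.21 to 0.050), FOSL1 in IPPK against control (-0.12 to 0.022) and EGR1 in IPPK against DBP5 (-0.11 to 0.050). The causes were not tested. No scaling moved the median of all genes by over 0.1 on the log2 scale. Each scaling brings the arrays to a common centre, so this median cannot show a loss or gain shared by most mRNAs. Signal over background limits dim members, and FOSB had the lowest group means (5.42 to 6.16). Its limma standard error (0.10) was not the largest, with JUND at 0.13, FOSL2 at 0.12 and JUNB at 0.11. Having 3 arrays per siRNA limits all members.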

Other observations

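The lists around the members were also compared between knock-downs. Of 15 AP-1 targets, none was lower and 11 were higher in GLE1 than in DBP5 knocked-down cells (median log2 difference 0.87), and 2 were lower and 10 higher in IPPK than in DBP5 knocked-down cells (0.56). Of 10 genes of the ATF4 response, none was lower and 9 were higher in GLE1 than in DBP5 (0.52), and 1 was lower and 8 were higher in IPPK than in DBP5 knocked-down cells (0.89). Of 20 MYC targets, 11 were lower and 4 higher in GLE1 than in IPPK knocked-down cells (-0.21). These are counts by limma at an adjusted p under 0.05, given as a description. Of all genes tested, 54.6% were called in GLE1 against DBP5, 48.9% in IPPK against DBP5 and 60.2% in GLE1 against IPPK, with medians of 0.03, 0.00 and 0.02.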
